A study of Zea mays with 14 samples.

Results

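The 200 gene models described here are those of maize with the most mRNA coverage in both seedling organs, out of 186790 gene models in the tables of shoot and root. The authors labelled these tables NonTE, read here as without models of transposable elements. All gene models means the models of these tables below, and a share over them is not one over the whole genome. Each gene model was ranked by the smaller of its 2 mRNA depths, one per organ, and the 200 of highest rank were kept, so the members were selected on mRNA depth in both organs. They are called the abundant genes below, and rank 1 is the gene whose smaller depth was highest. For that reason their mRNA values are a description and carry no test, while the chromatin libraries took no part in the choice.

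The material was seedlings of the inbred line B73, grown for 14 days and divided into shoots and roots, with no treatment and no genetic change in either organ. In each organ 6 assays were analysed: chromatin immunoprecipitation sequencing of 4 histone modifications (H3K4me3, H3K9ac, H3K27me3 and H3K36me3), sequencing of short DNA fragments released by the enzyme McrBC, and mRNA sequencing. There was 1 library per assay and organ, made for chromatin and DNA from tissue of 10 pooled seedlings, with the DNA of 3 immunoprecipitation reactions combined. No difference between the organs therefore has a replicate check, and no p-value is given. Whole organs hold many cell types, so fewer cells of a type and less RNA per cell cannot be told apart.

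H3K4me3 and H3K9ac are marks that in plants sit mainly around the start of transcribed genes. H3K36me3 lies along the body of genes that are being transcribed, and H3K27me3 is the mark left by Polycomb complexes at genes that are held silent. McrBC cuts DNA that carries methylcytosine, so the fragments of at most 500 nucleotides that were purified and sequenced come from methylated DNA, which in maize is concentrated in transposons and repeats.

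The abundant genes held 10.4% of the mRNA coverage summed over all gene models in shoot and 18.9% in root. These sums equal 21615685 reads for shoot and 21406798 for root. They are called shoot mRNA and root mRNA below and cover only these models. Of the abundant genes, 102 overlap another model, 97 of them one on the same strand. Whether bases were counted for more than 1 model was not tested. A read here is 35 bases of depth, since every deposited mRNA depth was a whole multiple of 35. The gene of rank 1 alone held 0.383% of shoot mRNA and 0.353% of root mRNA. The first 50 genes by rank held 5.42% in shoot and 11.5% in root. The abundant genes thus made up a larger part of the summed coverage in root than in shoot. The 200 most covered genes of each organ taken by itself held 20.9% of shoot mRNA and 21.3% of root mRNA, and 71 of the abundant genes were among those of shoot and 126 among those of root.

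Genes of high root depth contribute to this gap. The 5 abundant genes of highest root depth, at ranks 2, 4, 6, 12 and 13, held 1.04% of shoot mRNA and 6.02% of root mRNA. Without them the other 195 abundant genes held 9.36% in shoot and 12.9% in root. The share in root over the share in shoot was 1.82 with these 5 genes and 1.38 without them. Since the 5 were picked for their root depth, leaving them out must lower the root share; with the 5 highest genes of each organ left out of that organ, the value was 1.48.

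Coverage per gene spanned a wide range above a narrow lower edge. Reads per gene had a median of 7580 in shoot (lowest 4830, highest 82787) and of 9431 in root (lowest 4776, highest 289083). At the edge of the list, the smaller of the 2 read numbers was 4830, 4815 and 4776 for the last 3 genes inside, and 4761, 4754 and 4734 for the first 3 outside. The ranking continues without a step there, so genes on both sides of the edge are alike in coverage. The mean depth per covered base, which takes length into account, had a median of 166.6 in shoot and 224.5 in root. Over the 36265 other genes with mRNA above 0 in both organs, the same medians were 6.79 and 7.12.

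The order of the abundant genes was similar in the organs. Spearman's rho between mean depth in shoot and in root was 0.86 over the 200 genes, which share the same 2 libraries and were selected to be high in both. It was 0.65 over the next 200 genes by rank and 0.70 over the other genes above 0 in both organs. Each mean is a depth divided by the covered length of the same gene, so part of this rho can follow from length. Long genes had less depth per base, with a rho of -0.68 in shoot and -0.63 in root between the span of the model and its mean depth over the genes with a known span. Part of that relation is built in, since a summed depth favours long genes in the ranking.

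Most abundant genes were close to equal between the organs once each depth was divided by its organ's total. The log2 ratio of shoot over root had a median of -0.29, with a 95% interval of -0.34 to -0.24 that covers only the spread over genes, against -0.10 over the other genes above 0 in both organs. The ratio was above 0 for 46 genes and below 0 for 154. In the next 200 genes by rank it was above 0 for 53 and below 0 for 147. The ratio of the abundant genes was under 1.5-fold in either direction for 129 genes and under 2-fold for 166. Most of all genes above 0 in both organs were under 2-fold too, with 11.1% at least 2-fold higher in shoot and 13.9% in root. Ranking by the smaller depth also favours genes that are balanced between the organs.

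Where the organs differed by 2-fold or more, root was the higher organ in most cases. A share at least 2-fold higher in shoot was seen for 4 abundant genes, against 11.1% of all genes above 0 in both organs, and one at least 2-fold higher in root for 30 genes, against 13.9%. At 4-fold or more there were 0 genes higher in shoot, against 4.41% of all such genes, and 7 higher in root, against 4.21%. Of genes with equal summed depth, the ranking favours those balanced between the organs, so these counts can follow in part from the choice of the genes. The ranking sets no upper limit on the larger depth and treats both organs alike. Its part in these counts was not tested. The next 200 genes by rank had 14 genes at least 2-fold higher in shoot and 29 higher in root.

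The 30 genes leaning to root held 2.03% of shoot mRNA and 9.39% of root mRNA. The 166 genes within 2-fold held 8.01% of shoot mRNA and 9.38% of root mRNA. The plot of reads in shoot against reads in root shows both groups, with the genes within 2-fold along the diagonal.

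**Figure D1:**
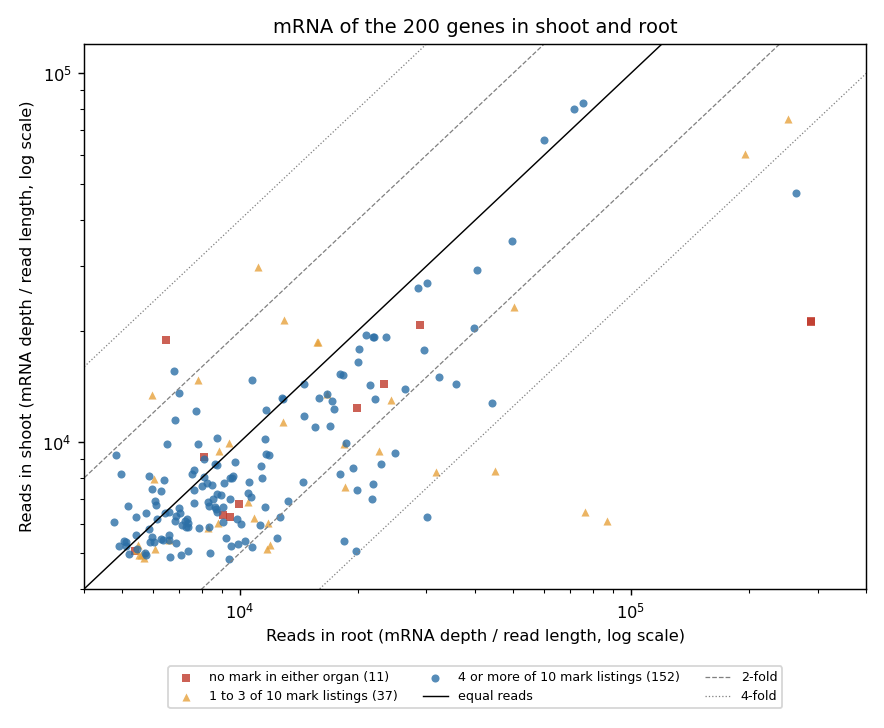
Reads (mRNA depth divided by 35, log scales) in shoot on the vertical axis and in root on the horizontal axis for the 200 abundant genes, 1 point per gene. Squares, triangles and circles mark genes with 0, 1 to 3, and 4 or more of 10 possible mark listings (11, 37 and 152 genes). The solid line is equality, dashed lines are 2-fold and dotted lines 4-fold differences in reads. Of the 7 genes at least 4-fold higher in root, 2 nearly coincident squares lie at 288898 and 289083 root reads.

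The gene models are named here by their identifiers, since none of these identifiers occurs in the gene name table used, which holds 49888 genes, so no protein or function is given. Zm164913, of rank 115, leaned furthest to shoot, with 18862 reads in shoot and 6480 in root. It is a model of 9 covered stretches over a span of 4869 bp, and its log2 ratio of shares was 1.53. No mark was listed for it in either organ. Zm005306, of rank 48, had 29895 reads in shoot and 11107 in root, a log2 ratio of 1.41. The Polycomb mark H3K27me3 was its single listed mark, over 682 bp in shoot, the organ with more of its mRNA, and it was not listed in root.

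Toward root, Zm035436 of rank 134 leaned furthest, with 6102 reads in shoot and 86696 in root and a log2 ratio of -3.84. Its mean depth per covered base was 84.2 in shoot and 872.7 in root. H3K4me3 was listed for it in shoot only (404 bp) and H3K9ac in root only (743 bp). Zm085539, of rank 13, had 21102 reads in shoot and 288898 in root, a log2 ratio of -3.79, with no mark listed. The gene of rank 12 was nearly identical to it in span (477 bp, against 480 bp for Zm085539) and in coverage, with 21297 reads in shoot and 289083 in root. These 2 models lie on different clones, and whether reads of one were also placed on the other was not tested.

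Chromatin at the abundant genes was mostly of the kind found at transcribed genes. H3K4me3 was listed for 166 of 200 genes in shoot, or 83.0% (exact binomial 95% interval 77.1 to 87.9), and for 155 in root, or 77.5% (71.1 to 83.1). Of all gene models, 25.7% had H3K4me3 in shoot and 19.8% in root, and of the genes above 0 in both organs, 61.9% in shoot and 52.2% in root. The share among the abundant genes was thus above both backgrounds in both organs. These intervals cover counting error only, since genes of a set share a library.

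H3K9ac was listed for 158 genes in shoot, or 79.0% (72.7 to 84.4), and for 123 in root, or 61.5% (54.4 to 68.3). The background was 24.8% in shoot and 12.1% in root over all gene models, and 61.4% and 38.4% over genes above 0 in both organs. H3K36me3 was listed for 130 genes in shoot, or 65.0% (57.95 to 71.6), and for 115 in root, or 57.5% (50.3 to 64.4), against 11.5% and 14.0% of all gene models and 37.9% and 44.1% of genes above 0 in both organs.

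The Polycomb mark and DNA methylation were rare. H3K27me3 was listed for 11 genes in shoot, or 5.5% (2.78 to 9.63), and for 9 in root, or 4.5% (2.08 to 8.37), against 3.55% and 1.26% of all gene models and 3.18% and 1.22% of genes above 0 in both organs. DNA methylation was listed for 10 genes in shoot, or 5.0% (2.42 to 9.00), and for 14 in root, or 7.0% (3.88 to 11.5), against 4.19% and 3.68% of all gene models and 2.92% and 2.67% of genes above 0 in both organs. In shoot the interval of each share held the share over all gene models; in root it lay above it for both marks. Against all gene models, that did not hold when a marked length of at least 200 bp was asked for. Root H3K27me3 was then on 3 genes, or 1.5% (0.310 to 4.32), against 1.06% of all gene models. Root DNA methylation was on 9, or 4.5% (2.08 to 8.37), against 2.47%. Of genes above 0 in both organs, 0.930% had root H3K27me3 of that length, which its interval held. Root DNA methylation was on 1.76% of them, below the interval. Shoot DNA methylation was on 7 abundant genes, or 3.5% (1.42 to 7.08), against 1.19%. For shoot H3K27me3 it was 8 genes, or 4.0% (1.74 to 7.73), against 2.95%. For DNA methylation, 7 of the 17 genes that carry it in either organ had none of the histone marks listed.

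**Figure D2:**
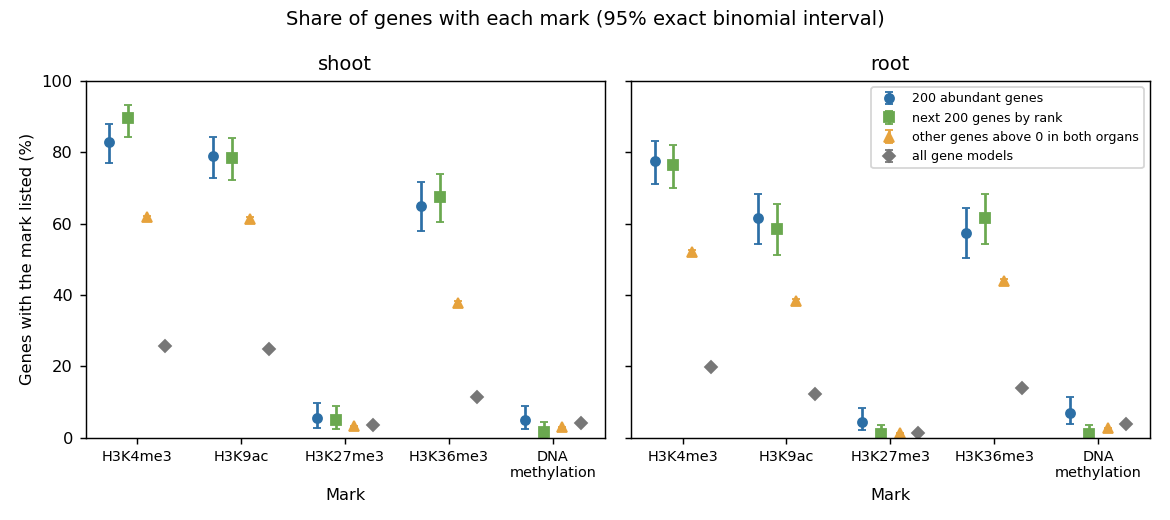
Percent of genes with each mark listed, in shoot (left) and root (right), for the 200 abundant genes, the next 200 by rank, other genes above 0 in both organs and all gene models, with exact binomial 95% intervals. H3K4me3, H3K9ac and H3K36me3 lie at 57.5% or more for the abundant genes in both organs, and the next 200 genes are close to them.

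The shares of the 3 active marks were close to those of the next genes in the ranking. In the next 200 genes by rank, H3K4me3 was present on 179 (shoot) and 153 (root), H3K9ac in 157 and 117, and H3K36me3 in 135 and 123, and the interval of each share overlapped that of the abundant genes. DNA methylation was listed for 10 abundant genes in shoot and 14 in root, against 3 and 2 of the next 200 genes.

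Many abundant genes carried the 3 active marks together. H3K4me3, H3K9ac and H3K36me3 were all listed for 112 genes in shoot and 82 in root, and for 74 genes in both organs. The same count in the next 200 genes was 117 in shoot, 82 in root and 72 in both. All 3 marks were listed together for 9.26% of all gene models in shoot, 7.53% in root and 5.39% in both. Over the other genes above 0 in both organs, they were listed together for 31.59%, 27.01% and 20.31%. At least 1 of these 3 marks was listed for 179 abundant genes in shoot and 172 in root. None of the 3 was listed for 69.9% of all gene models in shoot and 75.8% in root. Over the other genes above 0 in both organs it was 29.7% and 38.0%. No mark was listed for 16 genes in shoot and 23 in root, and for 11 genes in both, at ranks 12, 13, 14, 28, 43, 72, 106, 115, 122, 126 and 185. Of all gene models, 65.6% had no mark in shoot, 72.3% in root and 61.8% in both. Of the other genes above 0 in both organs, these shares were 28.2%, 36.6% and 25.1%.

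A gene without a listed mark is not shown to lack it, because mark depth is summed within called peaks. The matching peak list held a peak on the clone of the paired model for 878 of 886 listings, and for 743 of 1104 cases without a listing. For root DNA methylation it was 10 of 14 listings and for shoot H3K36me3 125 of 129. Why the other listings had no peak on that clone, or whether their pairing was wrong, was not tested. Of all 200 genes, 102 had the same marks listed in both organs, 63 had marks in shoot that were missing in root and no mark the other way, 19 had the reverse, and 16 had both. The 102 include the 11 genes with no mark in either organ. Other genes were not sorted in this way, so these counts are not shown to be particular to the abundant genes. H3K9ac was in shoot only for 20.5% of them and in root only for 3.0%, against 24.1% and 1.10% of the other genes above 0 in both organs. Differences in the number of peaks called per library move with the lean of listings to shoot: the shoot lists held 48926 H3K4me3 and 47604 H3K9ac peaks, the root lists 39410 and 26028. For H3K36me3 the peak lists ran the other way, with 20935 in shoot and 27069 in root. Of the abundant genes, 32 (16.0%) had this mark in shoot only and 17 (8.5%) in root only. The backgrounds leaned to root: 3.05% and 5.56% of all gene models, and 8.15% and 14.4% of the other genes above 0 in both organs. The part of peak numbers in the result was not tested.

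Part of the root mRNA of the set lay in genes without histone marks, most of it in 4 of them. The 74 genes with the 3 active marks in both organs held 4.02% of shoot mRNA and 4.77% of root mRNA, or 38.6% and 25.2% of what all abundant genes held. The 11 genes with no mark in either organ held 0.658% and 3.26%, or 6.33% and 17.3% of the total of the set. Ranks 12 and 13, the nearly identical pair described above, made up 2.70% of root mRNA, and the 9 others of these 11 held 0.462% of shoot mRNA and 0.563% of root mRNA. The 7 genes with DNA methylation and no histone mark held 0.803% and 2.88%, or 7.73% and 15.2%. Of these, ranks 2 and 4 held 0.627% of shoot mRNA and 2.09% of root mRNA, and the 5 others 0.177% and 0.791%. These 7 genes were picked out after their values were seen, and their log2 ratios ran from -3.58 to -0.93. Of the 7, 6 were at least 2-fold higher in root, against 30 of the 200 abundant genes and 13.9% of all genes above 0 in both organs.

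Those 7 genes include the genes of ranks 2 and 4. Rank 2 had 75079 reads in shoot and 252341 in root, with DNA methylation on 564 bp (shoot) and 968 bp (root). Rank 4 had 60405 reads in shoot and 195165 in root, with DNA methylation on 898 bp in shoot and none listed in root. For comparison, ranks 1, 3 and 5 were nearly equal between the organs: rank 1 had 82787 reads in shoot and 75514 in root, rank 3 had 79969 and 71501, and rank 5 had 65784 and 59819.

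Rank 3 had the pattern most common in the set. It is a model with 1 covered stretch and a span of 1006 bp, with H3K4me3 on 1490 bp (shoot) and 1457 bp (root), H3K9ac over 1613 bp and 964 bp, and H3K36me3 over 805 bp and 663 bp. No H3K27me3 and no DNA methylation were listed for it.

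Among the genes that have a mark, the marked stretch of H3K4me3 and H3K9ac was longer in the median than in other expressed genes. H3K4me3 had a median length of 1515 bp in shoot and 1398 bp in root, against 1220 bp and 1052 bp over the other genes above 0 in both organs. H3K9ac covered 1457 bp in shoot and 702 bp in root, against 1257 bp and 613 bp. H3K36me3 covered 1617.5 bp in shoot and 980 bp in root, against 1410 bp and 973 bp. For H3K36me3 the intervals of the abundant genes, 1376 to 1895 bp in shoot and 885 to 1028 bp in root, held the medians of the other genes. In the next 200 genes by rank the medians in shoot and root were 1474 bp and 1213 bp for H3K4me3, 1278 bp and 633 bp for H3K9ac, and 1734 bp and 1003 bp for H3K36me3. Of these 3 marks, H3K9ac differed most between the organs in median length.

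**Figure D3:**
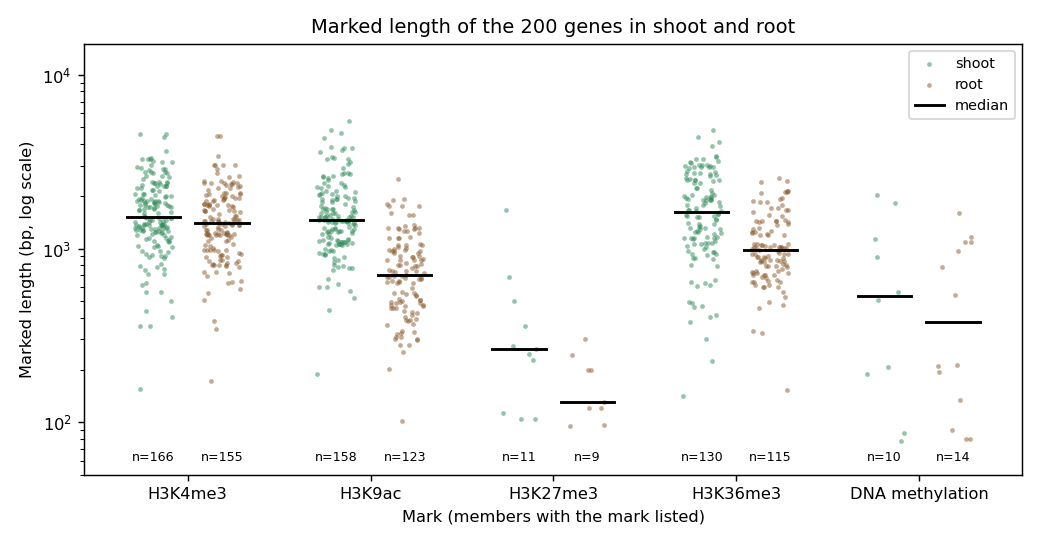
Marked length in bp (log scale) of every abundant gene with the mark listed, in shoot and root, with the median as a black line and the number of genes under each column. H3K9ac and H3K36me3 columns are lower in root, with medians of 1457 bp in shoot and 702 bp in root for H3K9ac.

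H3K27me3 and DNA methylation covered shorter stretches. H3K27me3 covered a median of 265 bp in shoot and 131 bp in root, against 639 bp and 321 bp over the other genes above 0 in both organs. DNA methylation covered a median of 534 bp in shoot and 376 bp in root, against 184 bp and 219 bp. Both rest on 9 to 14 genes.

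Marked length can run past the model. The marked H3K4me3 length exceeded the span of the gene model for 34 of 165 abundant genes in shoot and 26 of 154 in root. Regions counted for a gene can thus extend beyond it, and 102 of the abundant genes with a known span overlap another gene model.

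Depth of a mark was compared per marked base. The authors multiplied the depths of each library by a factor of unstated origin, so levels in shoot and root are set side by side only as deposited. H3K4me3 had a median depth per marked base of 3.39 in shoot and 1.79 in root, against 2.43 and 1.38 over the other genes above 0 in both organs. H3K9ac had 1.54 in shoot and 1.54 in root, against 1.71 and 1.40. H3K36me3 had 1.54 in shoot and 1.37 in root, against 1.29 and 1.34.

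Within genes marked in both organs, depth was higher in shoot for the 3 active marks. The median log2 ratio of H3K4me3 depth was 1.22 over 150 abundant genes, against 1.17 over the other genes marked in both organs, and 103 genes were at least 2-fold higher in shoot, against 61.0% of all genes marked in both, and 0 in root, against 0.362%. The median log2 ratio of H3K9ac depth was 1.30 over 117 genes, against 1.63 over the others, with 75 genes at least 2-fold higher in shoot, against 86.9%, and 0 in root, against 0.0779%. The median log2 ratio of H3K36me3 depth was 0.84 over 98 genes, against 0.37, with 46 genes at least 2-fold higher in shoot, against 20.2%, and 5 in root, against 6.99%.

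The parts of these ratios differ by mark. For H3K4me3 the log2 ratio of marked length was 0.11 and that of depth per marked base 0.95, while for H3K9ac it was 1.03 in length and 0.12 per base, and for H3K36me3 0.70 in length and 0.14 per base. The H3K9ac ratio per base was 0.56 over the other genes marked in both organs. H3K27me3 and DNA methylation had 7 genes each that were marked in both organs. For H3K27me3, 0 genes were at least 2-fold higher in shoot, against 55.6%, and 2 in root, against 1.49%. For DNA methylation 2 were higher in shoot, against 9.48%, and 3 in root, against 7.80%.

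**Figure D4:**
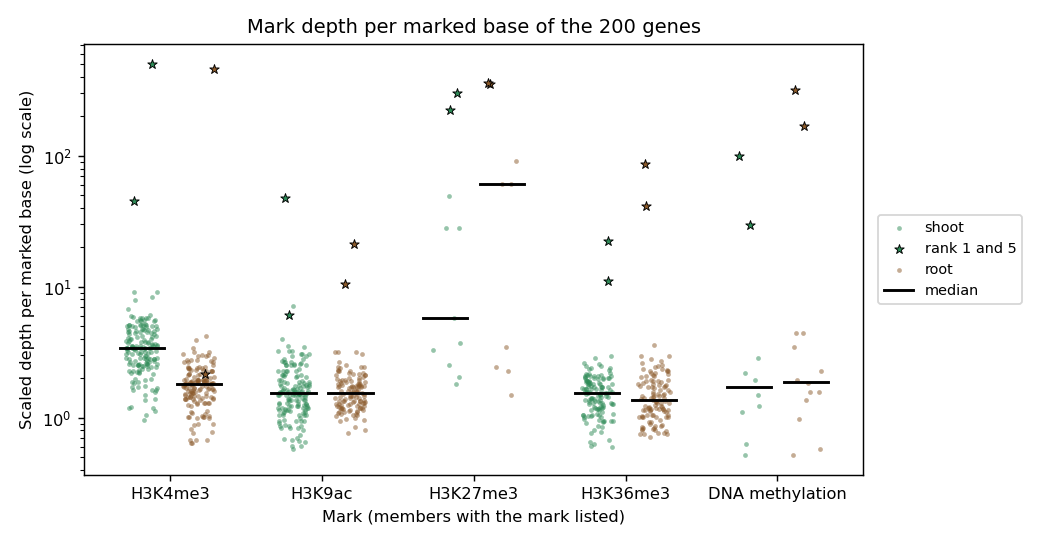
Scaled depth per marked base (log scale, authors' scaling) of every abundant gene with the mark listed, in shoot and root, with the median as a black line and ranks 1 and 5 as stars. Ranks 1 and 5 lie far above the other genes for H3K27me3, H3K36me3 and DNA methylation. For H3K4me3 in root, rank 1 lies at 2.16, just above the upper quartile of 2.14 (median 1.79).

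Ranks 1 and 5 stood apart from the other abundant genes. They were the 2 genes with all 5 marks listed in both organs. Rank 1 had an H3K27me3 depth per marked base of 303.9 in shoot against 355.2 in root, and rank 5 of 225.4 against 360.2. For DNA methylation, rank 1 had 100.05 in shoot against 318.7 in root, and rank 5 had 29.5 against 169.6. Rank 5 also had H3K4me3 at 507.4 in shoot and 463.7 in root, whereas rank 1 had 45.2 in shoot and 2.16 in root.

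The gene of rank 5 is a model with a span of 80 bp, and its 70 covered bases had a mean mRNA depth of 32892 in shoot and 29909.5 in root, the highest of all gene models in both organs. Depths of this kind over few bases were uncommon in general. Of all 6622 gene models with H3K27me3 in shoot, 9 had at least 20 per marked base, and 5 of the 11 marked abundant genes were among them. In root the numbers were 16 of 2361 for all gene models and 5 of 9 for the abundant genes. Ranks 90, 180 and 183 were the other abundant genes above that level, with marked lengths of 105 or 113 bp in shoot and of 96 or 121 bp in root. The remaining H3K27me3 genes had at most 5.74 per marked base. Whether such short and deep stretches hold repeated sequence was not tested.

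Organ ratios of mark and mRNA moved together weakly for H3K4me3 and H3K9ac. Over the genes marked in both organs, Spearman's rho between the log2 ratio of mark depth and of mRNA share was 0.39 for H3K4me3 (150 genes), 0.22 for H3K9ac (117 genes) and -0.13 for H3K36me3 (98 genes), with all genes from the same libraries. The same rho over the other genes above 0 in both organs was 0.37, 0.18 and 0.10. In the next 200 genes by rank it was 0.35 for both H3K4me3 and H3K9ac and -0.22 for H3K36me3. When marked length replaced depth, the rho of the abundant genes was 0.18 for H3K4me3 and 0.21 for H3K9ac, so the order of these 2 marks turned.

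**Figure D5:**
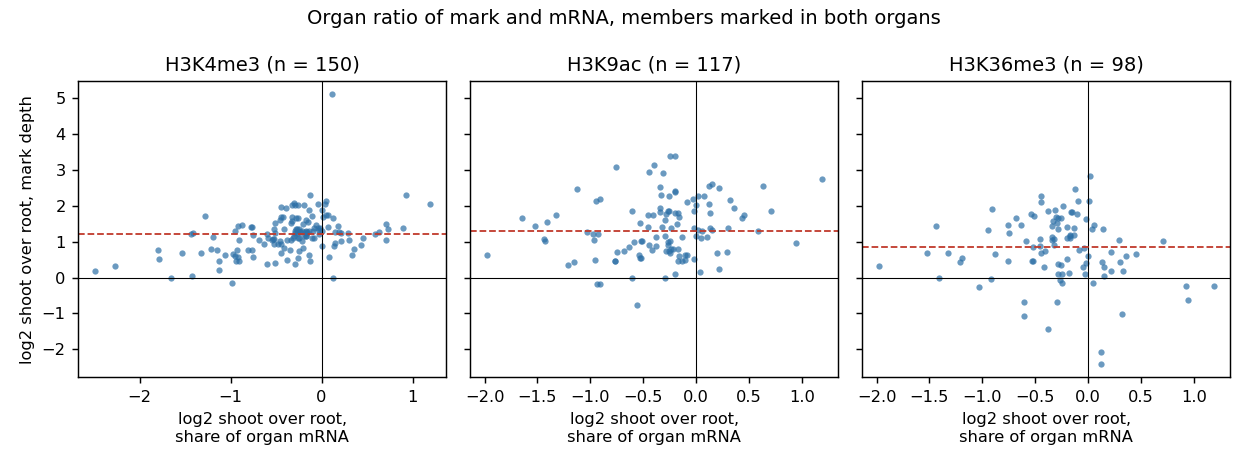
Log2 ratio of shoot over root of mark depth (vertical) against that of the share of organ mRNA (horizontal), for abundant genes marked in both organs, 1 panel per mark. The dashed line is the median mark ratio, and most points lie above 0 in all 3 panels, including genes whose mRNA share was higher in root.

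Within an organ, mark depth per marked base was weakly and negatively ranked with mean mRNA depth among the abundant genes that carry the mark. The rank correlation (rho) was -0.30 in shoot (158 genes) and -0.12 in root (123 genes) for H3K9ac. For H3K36me3 it was -0.14 in shoot (130 genes) and -0.21 in root (115 genes), and for H3K4me3 -0.058 in shoot (166 genes) and -0.092 in root (155 genes). Over the other genes above 0 in both organs the 6 values lay between 0.011 and 0.21. In the next 200 genes by rank they were negative as well, between -0.28 and -0.0094, so the sign is not particular to the abundant genes. The ranking set a lower limit on the smaller mRNA depth of the abundant genes and no upper one. Mean depth per covered base of these genes spanned 34.53 to 32892 (shoot) and 46.95 to 29909.5 (root). For the next 200 genes the smaller depth was limited on both sides. The part of these limits in the sign of rho was not tested. Span also moved with mean mRNA depth in the abundant genes, and its part was not tested. The depths per base of H3K4me3 and H3K9ac moved together, with a rho of 0.54 in shoot over 147 genes and 0.42 in root over 110 genes. The genes of each value come from the same libraries.

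The gene models differed in type and size. All abundant genes but 1 could be paired with a model in the typed table, and 93 were of type EVI, 94 of type PRO and 12 of type UPRO, labels that come without an explanation. Of all 161415 typed models, 25307 were EVI, 53702 PRO, 24779 UPRO and 57627 TE. Mark listings by type over other genes are not given here. The median span of the abundant genes was 2952 bp with 10 covered stretches, and 30 of them had 1 covered stretch. H3K4me3 was listed in shoot for 83 of 93 EVI, 78 of 94 PRO and 4 of 12 UPRO models, and DNA methylation for 1, 4 and 5 of them. Of 23 models with a span under 1000 bp, 12 had H3K4me3 in shoot and 12 in root, against 153 and 142 of 176 longer ones.

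The marks listed for the genes leaning to root were set beside those of the genes within 2-fold, with no test of the difference. Of the 30 genes at least 2-fold higher in root, H3K4me3 was listed for 20 in shoot and 18 in root, against 144 and 136 of the 166 genes within 2-fold. H3K36me3 was listed for 12 and 11 of the 30, against 116 and 103 of the 166. DNA methylation was listed for 5 and 5 of the 30, against 5 and 9 of the 166.

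Several abundant genes were alike in coverage and span. There were 23 pairs, over 39 genes, in which reads in both organs and span all lay within 5%, and in 22 of them the models were on different clones. The same marks were listed in both organs for 8 of the 23 pairs. Of the 189 genes with a mark, 13 repeated all mark values of an earlier one, so the values of these genes are not independent.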

How the data were processed

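The values came from the deposited organ tables, labelled NonTE and each with 186790 gene models, and from a deposited table of 161415 typed models. Per the file headers, the authors' tables give for each mark a marked length and a depth, which is a signal (base coverage summed within peaks), while mRNA has a depth, a covered length and their quotient. The deposited mRNA depths were whole multiples of 35 bases and were divided by 35 to give reads; mark depths carry 1 factor per library of unstated origin. The authors' peak lists hold only positions. Not given in the sources used here are the aligner, the peak caller, the build and the annotation.

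Organ tables were joined by the number in the gene identifier. No mean mRNA depth other than 0 lay under 2.55 (shoot) or 2.53 (root); whether genes at 0 had reads is unknown. The 200 genes and the lists were chosen with earlier results of these data known. Genes were paired with a typed model where summed coverage and covered length allowed 1 pair, which gave 199 of the 200. The named genes were to be the 10 of highest rank and the 5 with the largest ratio in each direction, but since 0 identifiers matched the name table of 49888 genes, at most 2 per direction are named and others are given by rank; the gene lists and cell type markers could not be run. Shares have exact binomial intervals and medians order-statistic intervals, at 95% and for counting error or spread over genes only. There was 1 library per assay and organ, so no test was run. The procedure was tested on simulated data. The 2 small RNA libraries of the 14 were not analysed here. Python 3.11.15, pandas 2.3.3, NumPy 2.4.6, SciPy 1.17.1 and matplotlib 3.10.9 were used.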

Additional observations from a re-analysis of the deposited data

How the results depend on the processing

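Of 185 values recomputed under an alternative, 119 could change; the others came from 3 settings that returned the same genes or from a rescaling that leaves rho as it is. Of the 119, 104 stayed within the interval of the reported value (for rho, within 0.1, a tolerance set here) and 15 moved. Only the median log2 ratios and rho could change sign, since percentages cannot, and 0 did. Ranking by mean depth per covered base, which shared 110 of the 200 genes, gave 8.80% of shoot mRNA, 16.4% of root mRNA and H3K36me3 on 49.0% of genes in root. With 100 genes the shares were 7.45% and 14.5% and the rho of H3K36me3 -0.020; with 400 genes the shares were 15.6% and 24.3%. A marked length of at least 200 bp left H3K27me3 in root on 1.5% of genes. With marked length in place of depth, the median log2 ratio was 0.11 for H3K4me3 and 1.03 for H3K9ac, and the rho of H3K4me3 was 0.18. The following were chosen after seeing the data: the median log2 mRNA ratio was -0.19 when organs were scaled by the median ratio of genes above 0 in both, and without the 5 genes of highest depth in the organ the shares were 8.71% in shoot and 12.9% in root. Keeping 1 model per set of identical mark and mRNA values removed no abundant gene. The cause of these moves was not tested beyond the change in genes or measure that each alternative makes. No paired analysis was possible because there was 1 library per assay and organ and no test. The total reads of the chromatin libraries are unknown here, so what depth limits in the mark listings cannot be given.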
